A study of Mus musculus with 12 samples.

Results

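The Ly6 family of small surface and secreted proteins was examined in monocytes and macrophages sorted from allergic mouse skin. The members are genes picked by symbol, and all 10 listed symbols (Ly6c1, Ly6c2, Ly6a, Ly6e, Ly6i, Ly6g, Ly6d, Ly6k, Slurp1 and Slurp2) were found among the 37775 symbols of the count table. They were divided by known expression into 6 members of leukocytes and stroma, called monocyte-side members here (Ly6c1, Ly6c2, Ly6a, Ly6e, Ly6i and Ly6g), and 4 members known from epithelium or testis (Ly6d, Ly6k, Slurp1 and Slurp2). 8 of the 10 members passed the filter on low counts and were tested, while Ly6g and Ly6k were not and are described by their counts.

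Bulk RNA-seq was performed on 4 fractions of WT BALB/c mouse ear skin in IgE-CAI, an IgE-mediated chronic allergic inflammation of the skin. All mice had received 300 μg of anti-TNP IgE intravenously and 10 μg of TNP-OVA in the ear, and skin was taken on day 5 after the challenge. No unchallenged fraction is among the 12 libraries, and the labels give no age. From CD45+CD11b+ cells negative for Ly6G and SiglecF, the sort took Ly6ChiPD-L2lo classical monocytes, Ly6ChiPD-L2hi early CMDMs (classical monocyte-derived macrophages), Ly6CloPD-L2hi late CMDMs and Ly6CloPD-L2lo resident-like macrophages, with 3 libraries each. The labels do not say whether the 3 libraries came from separate animals, so that p-values measure the spread between these libraries.

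Ly6 proteins share a compact, disulfide-rich fold. Most are held on the cell surface by a GPI anchor, whereas the Slurp proteins are secreted. In mice the family is best known from flow cytometry, where Ly6C on monocytes and Ly6G on neutrophils are standard markers, and Ly6A is the stem cell antigen Sca-1. The antibody to Ly6C binds the products of Ly6c1 and Ly6c2. Since the fractions were separated by this protein, their levels in the Ly6C-high against the Ly6C-low fractions check the gate and are not an independent finding. The depletion of Ly6G+ cells likewise bears on Ly6g.

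All 10 members lie on chromosome 15 of GRCm38, from Slurp1 (start 74724318, minus strand) to Ly6g (end 75159126, plus strand). Ly6c1 occupies 75044018 to 75048830 and Ly6c2 occupies 75108158 to 75111970, both on the minus strand. Their coding sequences, 393 bases each, differ at 9 aligned columns and are 97.7% identical, with a longest identical run of 188 bases. The first 90 coding bases are shown because they hold 6 of these differences, given in capitals, and thus show where a read can and cannot separate the pair.
Ly6c1: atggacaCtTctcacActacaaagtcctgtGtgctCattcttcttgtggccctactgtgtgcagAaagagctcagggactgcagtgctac
Ly6c2: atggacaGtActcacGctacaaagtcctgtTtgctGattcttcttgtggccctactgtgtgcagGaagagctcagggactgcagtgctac

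Ly6a and Ly6i are the next closest pair, with 86.3% of aligned coding columns identical. Their first 90 coding bases also differ at 6 positions, in capitals, and are shown because Ly6i had far fewer counts than Ly6a.
Ly6a: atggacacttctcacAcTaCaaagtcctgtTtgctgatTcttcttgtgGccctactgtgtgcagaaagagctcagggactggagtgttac
Ly6i: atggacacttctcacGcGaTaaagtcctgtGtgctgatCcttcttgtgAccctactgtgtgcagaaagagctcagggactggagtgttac

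Over the 45 pairs of members the median identity was 49.4%, and the lowest was 40.04%. None of the 50-base words in the transcripts of Ly6e, Ly6d, Ly6k, Slurp1 or Slurp2 occurred in a transcript of another gene. For Ly6c1, 32.8% of its 50-base words occurred in another gene, against 14.4% for Ly6c2, 19.0% for Ly6a, 4.76% for Ly6i and 0.448% for Ly6g. With 100-base words the shares were 10.1% for Ly6c1, 5.81% for Ly6c2 and 1.45% for Ly6a, and 0% for the other members. Ly6c1 shared words mainly with Ly6c2 (21.5% at 50 bases) and Ly6a (11.1%). The authors mapped reads to transcripts and summed them by symbol, so that reads within these stretches can be placed on either paralog, and the separate values of Ly6c1, Ly6c2, Ly6a and Ly6i are uncertain to that extent. The reference derives from C57BL/6J mice while the samples are BALB/c, and the part of strain differences in the placing of reads was not tested.

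**Figure D1:**
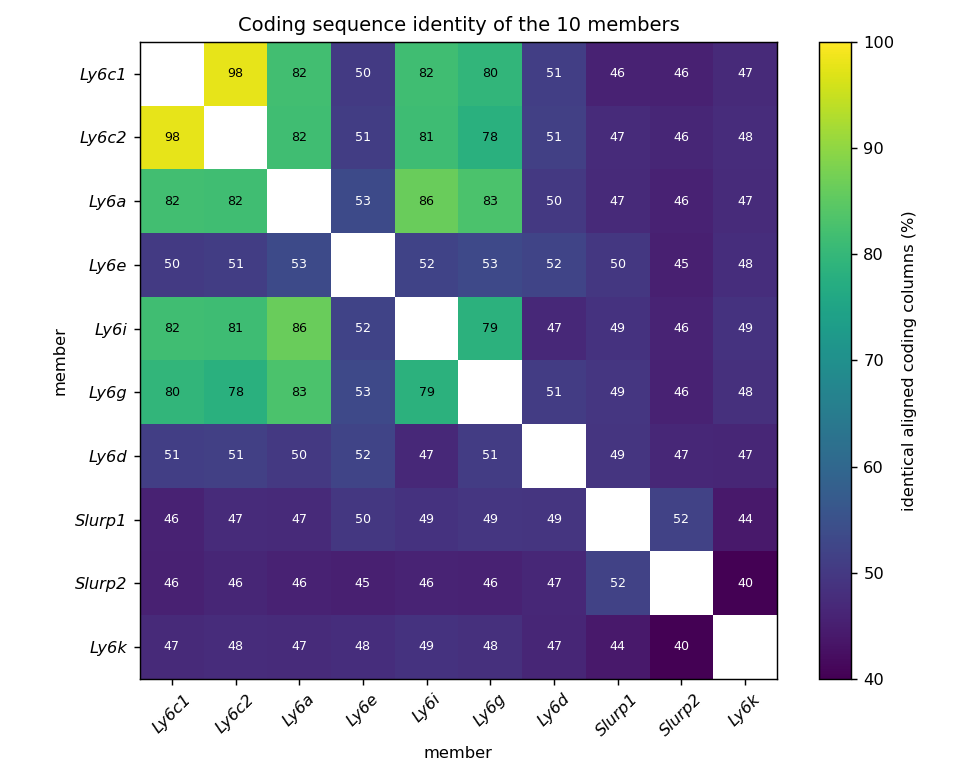
Percent of identical aligned columns between the coding sequences of each pair of the 10 members, as colour and number. Ly6c1 and Ly6c2 reach 97.7% and Ly6a and Ly6i 86.3%, and the lowest pair is at 40.04%.

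The 12 libraries held 12537178 to 19844113 counts, so that 3 counts, the upper limit for a gene with 0 counts, corresponded to 0.151 to 0.239 CPM. CPM are counts scaled to library size, here with TMM factors, except that the 3-count limits were taken on library size alone. Since the reads carry no molecular identifiers, intervals and limits cover counting error alone. The 6 monocyte and macrophage markers (Ptprc, Itgam, Csf1r, Lyz2, Cd68, Adgre1) were present in every fraction, with a mean summed level of 2742 CPM in early CMDMs and 6168 to 9390 CPM in the others. RNA of other skin cells was present as well, although the sort took CD45+CD11b+ cells. The 6 keratinocyte markers (Krt5, Krt14, Krt1, Krt10, Krt15, Dsp) summed to 17096 to 27284 CPM in early CMDMs and to 1871 to 4050 CPM elsewhere. The 6 fibroblast markers (Col1a1, Col1a2, Col3a1, Dcn, Lum, Pdgfra) summed to 2988 to 5588 CPM in the Ly6C-high fractions and to 276 to 499 CPM in the Ly6C-low fractions. None of these markers was at 0 in all libraries of a fraction. In bulk samples, fewer cells of a type and less RNA per cell cannot be told apart.

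Ly6c1 and Ly6c2, the genes of the Ly6C antigen, fell from classical monocytes to early CMDMs and again to the Ly6C-low fractions. The first of these decreases lies within the Ly6C-high gate. Ly6c1 was at 918, 688 and 519 CPM in classical monocytes, at 163, 136 and 120 CPM in early CMDMs. Resident-like macrophages had 21.8, 28.6 and 29.0 CPM, and late CMDMs 30.7, 27.96 and 30.4 CPM. The libraries of classical monocytes, early CMDMs and the Ly6C-low fractions did not overlap, while the ranges of late CMDMs and resident-like macrophages did. Compared with classical monocytes, Ly6c1 was 5.08-fold lower in early CMDMs (log2 fold change -2.34, SE 0.18, adjusted p = 6.88e-08, edgeR), 23.9-fold lower in late CMDMs (adjusted p = 3.83e-10) and 26.8-fold lower in resident-like macrophages (adjusted p = 3.28e-10).

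Ly6c2 was at 607, 490 and 380 CPM in classical monocytes and at 53.6, 44.1 and 50.2 CPM in early CMDMs. In late CMDMs it was at 22.0, 18.8 and 16.6 CPM and in resident-like macrophages at 15.9, 18.9 and 17.8 CPM. Again the Ly6C-low fractions overlapped with each other and with no other fraction. The decrease to early CMDMs was 9.98-fold (log2 fold change -3.32, SE 0.16, adjusted p = 5.35e-10, edgeR), against 5.08-fold for Ly6c1. From early to late CMDMs the decrease was 2.58-fold for Ly6c2 and 4.70-fold for Ly6c1. The difference between the 2 genes was not tested.

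Accordingly, the split of counts within the pair differed between fractions. Ly6c2 made up 39.8%, 41.6% and 42.3% of the Ly6c1 and Ly6c2 counts in classical monocytes, and 24.7%, 24.5% and 29.6% in early CMDMs. It made up 41.8%, 40.2% and 35.3% in late CMDMs and 42.1%, 39.7% and 38.1% in resident-like macrophages. Every early CMDM library was below the other 9 libraries. The exact binomial 95% intervals (Clopper-Pearson) of early CMDM libraries reached at most 31.3%, and the lowest bound of the others was 31.7%. The share was given no test, and the part of reads that fit both genes in it was not tested. Summed to 1 row, the pair was 189 ± 24.5 CPM (SD, n = 3) in early CMDMs and 1201 ± 314 CPM in classical monocytes, with resident-like macrophages at 44.0 ± 5.44 CPM and late CMDMs at 48.8 ± 3.34 CPM. The sum fell by 2.67 on the log2 scale from classical monocytes to early CMDMs (adjusted p = 8.01e-09, edgeR) and by 1.95 from early to late CMDMs (adjusted p = 5.35e-07). Between late CMDMs and resident-like macrophages it was not called (log2 fold change -0.15, adjusted p = 0.553).

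**Figure D2:**
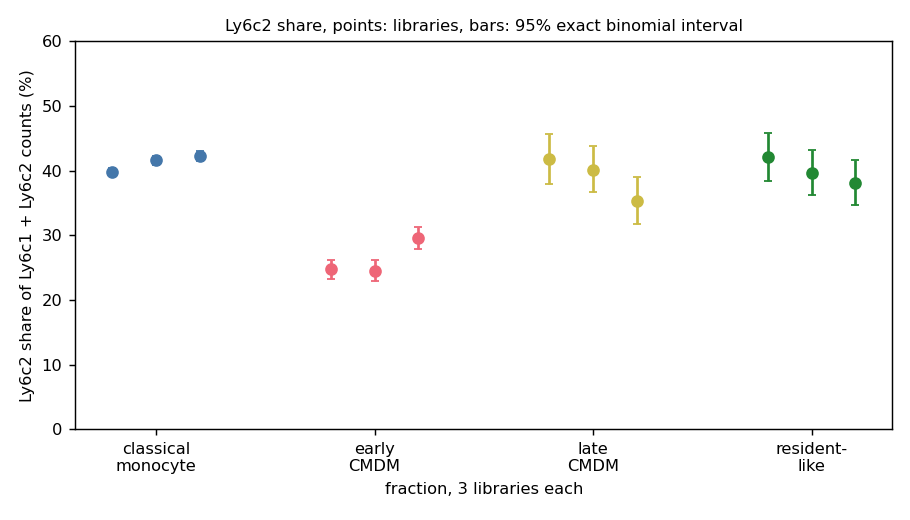
Percent of the Ly6c1 and Ly6c2 counts that were assigned to Ly6c2 in each of the 12 libraries, grouped by fraction, with exact binomial 95% intervals. The 3 early CMDM libraries sit between 24.5% and 29.6%, below the range of 35.3% to 42.3% in the other 9.

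The RefSeq upstream table (GRCm38.p6) holds entries for 3 of the 10 members, Ly6c1, Ly6c2 and Ly6g. The 250 bases before the most upstream start of Ly6c1 (chr15:75048838-75049087, minus strand) and Ly6c2 (chr15:75111972-75112221, minus strand) are printed because both genes fell in the same comparisons while their split changed. Capitals mark TATAAA and CCAAT, searched on both strands.
Ly6c1: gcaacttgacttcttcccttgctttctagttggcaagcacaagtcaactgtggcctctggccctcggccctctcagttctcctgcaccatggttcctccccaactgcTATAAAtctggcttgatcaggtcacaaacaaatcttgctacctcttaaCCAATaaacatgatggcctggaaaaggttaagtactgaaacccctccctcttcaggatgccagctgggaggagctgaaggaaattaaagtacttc
Ly6c2: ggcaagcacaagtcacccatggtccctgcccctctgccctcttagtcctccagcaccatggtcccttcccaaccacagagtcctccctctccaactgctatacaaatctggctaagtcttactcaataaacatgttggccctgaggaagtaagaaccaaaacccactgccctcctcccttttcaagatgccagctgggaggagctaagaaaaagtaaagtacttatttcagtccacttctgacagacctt
The Ly6c1 window held 1 TATAAA, 143 bases before the start, and 1 CCAAT, 95 bases before it, and the Ly6c2 window held neither. Each gene has another listed start, and for both genes the window before that start held neither TATAAA nor CCAAT. Of 32851 upstream windows of the same length in the table, 12.4% held TATAAA and 33.8% held CCAAT. The interferon-related motifs GAS (TTCNNNGAA) and ISRE had 0 matches in both printed windows, against 7.02% and 2.98% of all windows. A match is a description of these letters and not a binding site.

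Ly6a, which encodes Sca-1, a surface antigen of stem cells, fibroblasts, endothelium and activated lymphocytes, was high in both Ly6C-high fractions and low in both Ly6C-low fractions. It was at 296, 196 and 125 CPM in classical monocytes and at 200, 186 and 152 CPM in early CMDMs. It was at 22.0, 19.5 and 22.3 CPM in late CMDMs and at 18.5, 22.7 and 19.5 CPM in resident-like macrophages. The Ly6C-high fractions overlapped with each other, and so did the Ly6C-low fractions, with a wide gap between the pairs. Ly6a was 8.44-fold lower in late than in early CMDMs (log2 fold change -3.08, SE 0.25, adjusted p = 9.55e-07, edgeR) and 9.68-fold lower in late CMDMs than in classical monocytes (adjusted p = 3.05e-07). Between early CMDMs and classical monocytes it was not called (log2 fold change -0.20, 95% interval -0.68 to 0.29, adjusted p = 0.510). That comparison depended on single libraries, being called as a decrease without classical monocyte library 3 (log2 fold change -0.45, adjusted p = 0.0265) and turning to 0.17 without library 1 (adjusted p = 0.440).

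The fibroblast markers moved in the same way as Ly6a in each comparison except that of the Ly6C-low fractions. From classical monocytes to late CMDMs 0 of 6 fibroblast markers rose and 6 fell, beside 18.1% and 17.5% of all genes. Their median log2 fold change was -3.23. From early to late CMDMs 6 of 6 fell (median -2.99), beside 17.5% of all genes. In resident-like macrophages 6 of 6 were lower than in classical monocytes (median -3.79), beside 12.9% of all genes. Against early CMDMs 6 of 6 were lower there too (median -3.53), beside 25.1%. Between early CMDMs and classical monocytes 0 of 6 were called, beside 24.2% higher and 20.6% lower of all genes. In resident-like macrophages against late CMDMs, where Ly6a was not called, 0 of 6 were higher and 3 lower, beside 12.7% and 15.4%. Blood endothelial markers (Pecam1, Cdh5, Kdr, Emcn, Cldn5, Tie1) went the other way from classical monocytes to late CMDMs. There 5 of 6 were higher and 0 lower, beside 18.1% and 17.5% of all genes. Per 1000 counts of the 6 fibroblast markers, Ly6a had 44.2 ± 7.69 counts in classical monocytes (SD, n = 3) and 47.6 ± 3.29 in early CMDMs, with resident-like macrophages at 63.6 ± 7.80 and late CMDMs at 43.9 ± 3.004. Thus the 10.1-fold range of its level in CPM narrowed on this scale, which was chosen after the values were seen. For Ly6c1 the same ratio ran from 37.1 ± 4.05 in early CMDMs to 156 ± 9.92 in classical monocytes. The part of fibroblast RNA in the Ly6a result was not tested.

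Ly6e, an interferon-induced member that was identified as a thymocyte antigen and acts on virus entry, had a 5.13-fold range of fraction means, the narrowest of the 5 tested monocyte-side members. It was at 416, 496 and 340 CPM in classical monocytes and at 209, 204 and 195 CPM in early CMDMs. In late CMDMs it was at 89.8, 68.2 and 86.0 CPM, and in resident-like macrophages at 81.8, 88.1 and 86.0 CPM. Only the Ly6C-low fractions overlapped. The decrease was 2.06-fold from classical monocytes to early CMDMs (log2 fold change -1.04, SE 0.13, adjusted p = 6.35e-06, edgeR) and 2.49-fold from early to late CMDMs (adjusted p = 1.69e-06). The first of these turned to an increase when libraries were scaled to 10 leukocyte genes (log2 fold change 0.54, adjusted p = 0.00806). Of 10 interferon-stimulated genes compared with it (Isg15, Ifit1 and others), 6 were lower in early CMDMs than in classical monocytes and 0 were higher. The shares of all tested genes were 20.6% and 24.2%, and the median log2 fold change of the 10 was -0.94. In late against early CMDMs, where Ly6e fell, 0 of the 10 were lower and 1 was higher. The shares of all tested genes there were 17.5% and 14.4%, and the median of the 10 was 0.24.

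Ly6i, a close paralog of Ly6a, was measured with few counts. It had 149, 140 and 135 counts in classical monocytes, 40, 25 and 27 in early CMDMs, 12, 6 and 8 in resident-like macrophages, and 1, 11 and 9 in late CMDMs. Its level was 8.13 ± 0.904 CPM in classical monocytes (SD, n = 3) and 1.92 ± 0.483 CPM in early CMDMs, and the libraries of these fractions did not overlap. The decrease was 4.21-fold (log2 fold change -2.07, SE 0.27, adjusted p = 8.39e-06, edgeR), and a further 4.003-fold to late CMDMs (adjusted p = 8.20e-04).

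Ly6g, whose product marks neutrophils, had 7, 3 and 3 counts in classical monocytes and 0 counts in each of the other 9 libraries. Its mean in classical monocytes was 0.254 CPM. This was 1.21-fold the level that 3 counts per library would give in late CMDMs, 1.31-fold for early CMDMs and 1.59-fold for resident-like macrophages. The 3-count levels carry no TMM factors, unlike the mean, so the ratios are approximate. These ratios lie close to 1 and rest on library 1, at 0.431 CPM. Libraries 2 and 3, at 0.165 and 0.167 CPM, were below the 3-count level of early CMDMs (0.194 CPM) and late CMDMs (0.210 CPM). A difference in Ly6g is therefore not established. The 6 neutrophil genes (S100a8, S100a9, Cxcr2, Csf3r, Retnlg, Mmp8) summed to 76.0 to 139 CPM over the 12 libraries. Csf3r, which monocytes express too, accounted for 54.9 to 105 CPM in the fraction means. Single genes differed in pattern. Mmp8 averaged 16.6 CPM in classical monocytes and 1.07 to 2.97 CPM in the other fractions. S100a9 was highest in early CMDMs, at 10.4 CPM against 0.514 to 1.78 CPM. Retnlg was highest in resident-like macrophages, at 43.9 CPM against 2.69 to 5.36 CPM.

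**Figure D3:**
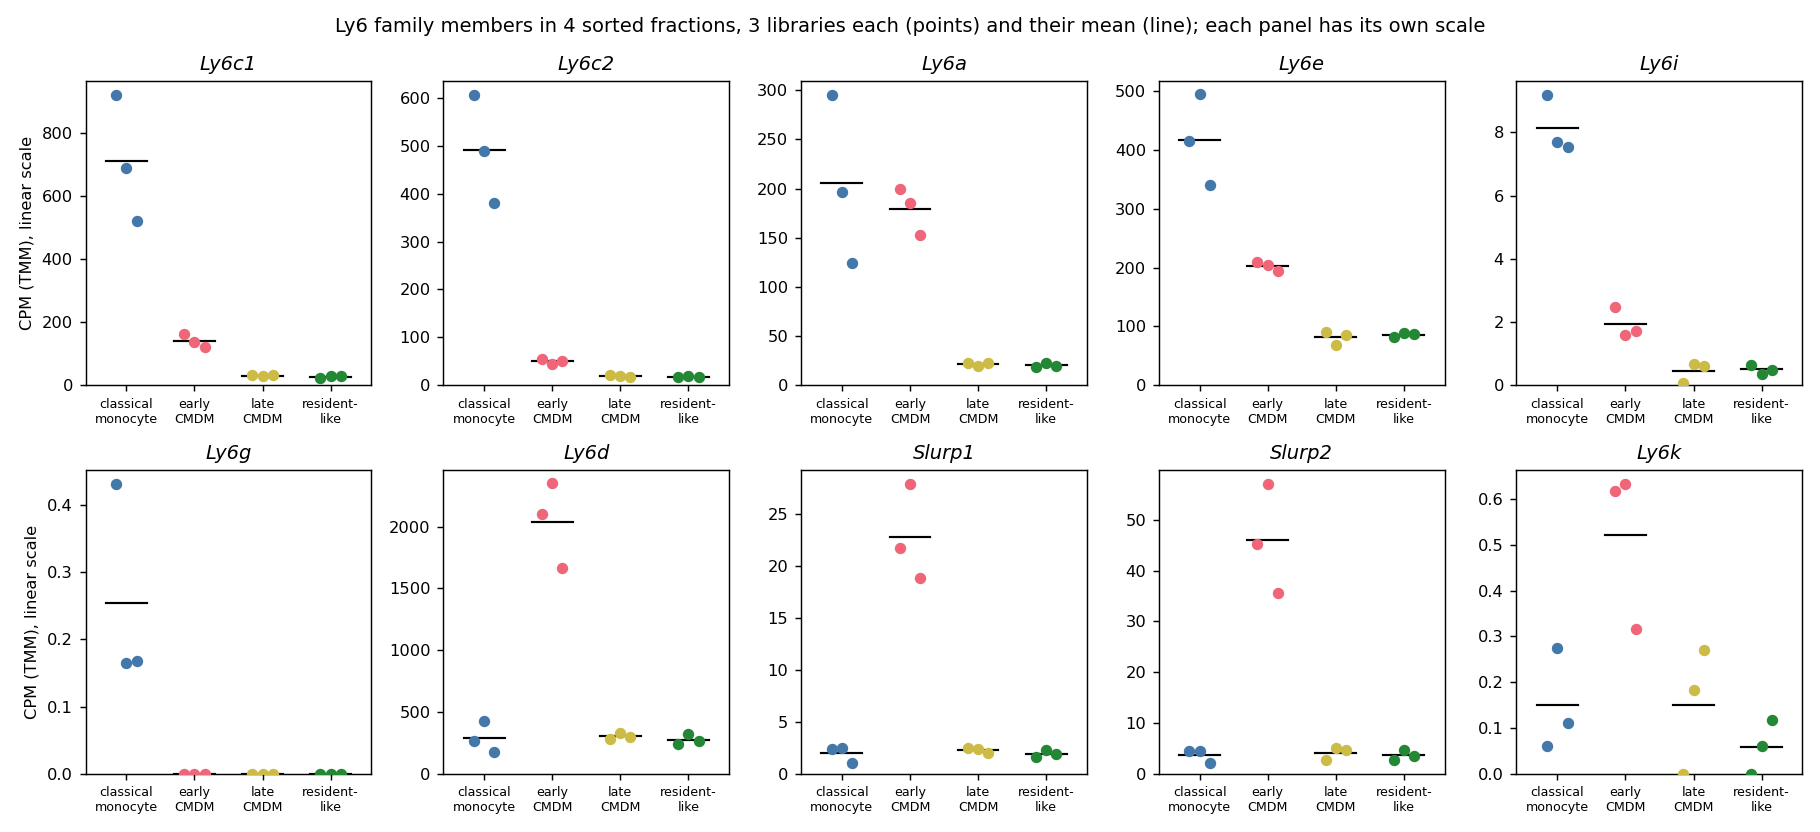
Level of each member in CPM on a linear axis from 0, with 1 panel and scale per member, for 3 libraries (points) and their mean (line) in each of 4 fractions. Ly6c1 runs from 918 CPM in classical monocytes to 21.8 CPM in resident-like macrophages, while Ly6d, Slurp1 and Slurp2 are high in early CMDMs alone.

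The epithelial members followed another order. Ly6d, an antigen of stratified epithelium and of early B lineage cells, was at 2101, 2351 and 1669 CPM in early CMDMs. Classical monocytes had 267, 423 and 173 CPM, resident-like macrophages 239, 322 and 262 CPM, and late CMDMs 279, 333 and 301 CPM. All early CMDM libraries were above all others, and the other 3 fractions overlapped. Ly6d was 7.09-fold higher in early CMDMs than in classical monocytes (log2 fold change 2.83, SE 0.26, adjusted p = 1.07e-06, edgeR) and 6.70-fold lower in late than in early CMDMs (adjusted p = 3.57e-06). Between late CMDMs and classical monocytes the log2 fold change was 0.08 (95% interval -0.45 to 0.61, adjusted p = 0.830).

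Slurp1 and Slurp2 encode secreted proteins of keratinocytes that act on acetylcholine receptors. Slurp1 was at 21.7, 27.9 and 18.9 CPM in early CMDMs and between 1.00 and 2.47 CPM in the other 9 libraries. Slurp2 was at 45.3, 57.1 and 35.5 CPM in early CMDMs and between 2.06 and 5.05 CPM elsewhere. For both genes the early CMDM libraries stood above all others, and the remaining fractions overlapped. Slurp1 was 11.7-fold higher in early CMDMs than in classical monocytes (log2 fold change 3.54, SE 0.25, adjusted p = 1.67e-08, edgeR). Slurp2 was 12.5-fold higher (log2 fold change 3.64, SE 0.29, adjusted p = 1.23e-07).

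Ly6k, known from testis and sperm function, had 10, 10 and 5 counts in early CMDMs, 0, 1 and 2 in resident-like macrophages, 1, 5 and 2 in classical monocytes, and 0, 3 and 4 in late CMDMs. The early CMDM fraction thus also held most of its counts, 25 against 8, 7 and 3. At 0.522 CPM it is close to the limit of detection.

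The keratinocyte markers moved with the epithelial members in the comparisons that involve early CMDMs. In early CMDMs against classical monocytes 6 of 6 were higher (median log2 fold change 2.95), beside 24.2% of all genes. In late against early CMDMs 6 of 6 were lower (median -2.62), beside 17.5%. Against early CMDMs 6 of 6 were also lower in resident-like macrophages (median -3.24), beside 25.1%. Elsewhere Ly6d, Slurp1 and Slurp2 were not called. There 2 of 6 markers were higher in late CMDMs than in classical monocytes (median 0.33), beside 18.1%. In resident-like macrophages 3 of 6 were lower than in late CMDMs (median -0.65), beside 15.4%, and 0 of 6 were called against classical monocytes. Per 1000 counts of these 6 markers, Ly6d had 90.6 ± 6.12 counts in early CMDMs (SD, n = 3), 112 ± 9.75 in resident-like macrophages, 98.3 ± 6.12 in classical monocytes and 92.6 ± 3.55 in late CMDMs. On this scale the early CMDM libraries, at 86.2 to 97.6, overlapped with those of classical monocytes, at 92.3 to 105, and late CMDMs, at 89.9 to 96.6, and lay below those of resident-like macrophages, at 104 to 123. Slurp1 had 1.01 ± 0.0972 per 1000 in early CMDMs and 0.677 ± 0.183 in classical monocytes. Slurp2 had 2.02 ± 0.108 per 1000 in early CMDMs and 1.29 ± 0.332 in classical monocytes, so that its 12.5-fold difference in CPM was reduced to a ratio in which the lowest early CMDM value, 1.90, was still above the highest classical monocyte value, 1.68. The 6 B cell markers summed to 23.4 to 29.6 CPM in late CMDMs, to 12.6 to 16.4 CPM in early CMDMs and to 13.3 to 18.01 CPM in the other fractions. The part of keratinocyte RNA in these results was not tested.

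**Figure D4:**
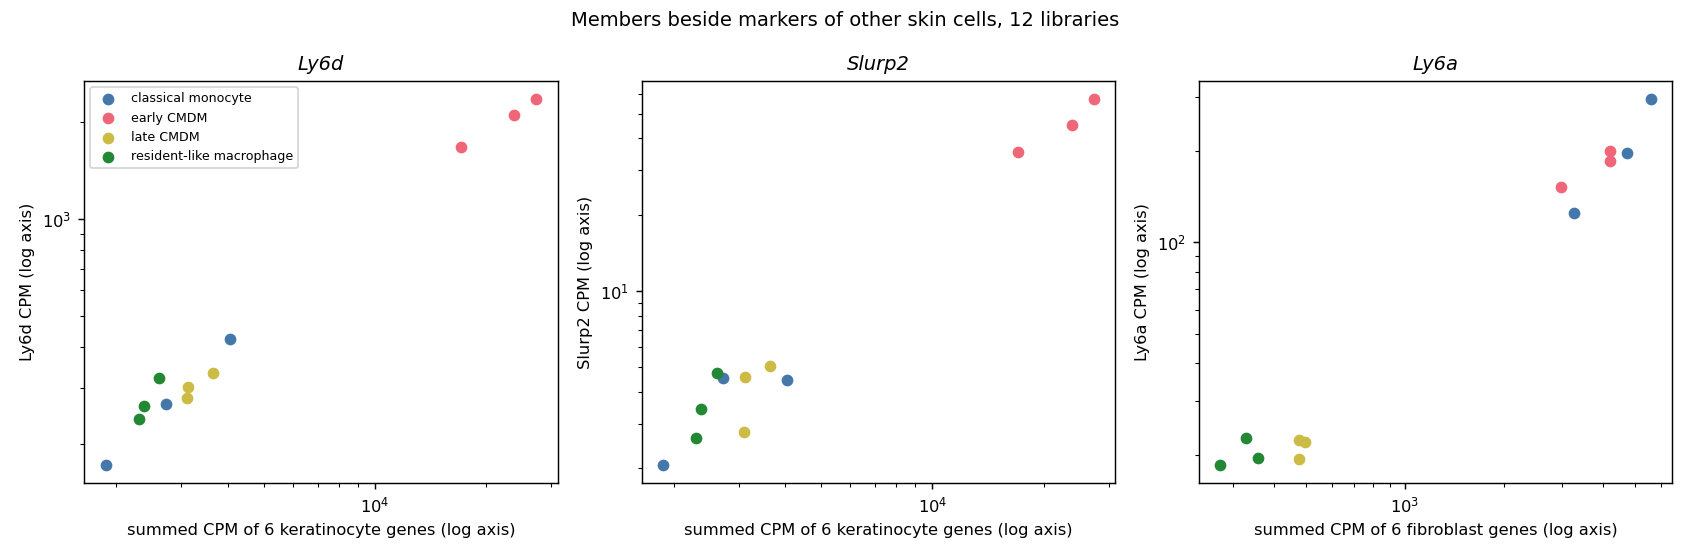
Level of Ly6d and Slurp2 (CPM, log axis) against the summed CPM of 6 keratinocyte genes, and of Ly6a against 6 fibroblast genes, in 12 libraries coloured by fraction. Early CMDM libraries lie apart, at keratinocyte sums of 17096 to 27284 CPM with Ly6d at 1669 to 2351 CPM, and Ly6a is high in both fractions with high fibroblast sums.

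Compared per transcript length, Ly6d was the most abundant member in early CMDMs, at 2742 CPM per kb. In classical monocytes Ly6c1 led, with 839 CPM per kb by its longest transcript and 1312 by its median transcript length. Ly6c2 came after Ly6d and Ly6a there by the longest transcript (184 CPM per kb) and next to Ly6c1 by the median length (674), because its longest transcript is an unusually long one of 2680 bases. Summed over members, the epithelial ones took 13.6% ± 4.36 of the CPM of all 10 in classical monocytes (SD, n = 3), 78.5% ± 2.21 in early CMDMs, 64.9% ± 2.18 in resident-like macrophages and 67.1% ± 4.16 in late CMDMs.

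Early CMDMs differed from classical monocytes in 7 of the 8 tested members, of which 3 were higher and 4 were lower, where 24.2% of all tested genes were higher and 20.6% lower. The 3 were Ly6d, Slurp1 and Slurp2, the 4 were Ly6c1, Ly6c2, Ly6e and Ly6i, and Ly6a was not called. In late CMDMs against classical monocytes 0 members were higher and 5 lower, beside 18.1% and 17.5% of all genes. In resident-like macrophages against classical monocytes the counts were again 0 and 5, beside 10.8% and 12.9%. In both comparisons the 5 were the monocyte-side members, and Ly6d, Slurp1 and Slurp2 were not called.

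All 8 tested members were lower in late than in early CMDMs, where 14.4% of genes were higher and 17.5% lower. All 8 were also lower in resident-like macrophages than in early CMDMs, beside 21.4% higher and 25.1% lower. These comparisons share the early CMDM libraries. Between resident-like and late CMDM fractions 0 of 8 members were called in either direction, beside 12.7% higher and 15.4% lower of all genes. There the log2 fold changes of the members lay between -0.26 and 0.07, and the widest 95% interval was that of Ly6i, from -0.95 to 1.09. Counts at an unadjusted p under 0.05 were 0 as well, and DESeq2 also called 0. Scaling to 10 leukocyte genes called 2 members lower in resident-like macrophages, Ly6c1 (log2 fold change -0.63, adjusted p = 0.0209) and Ly6c2 (-0.59, adjusted p = 0.0177), with the median of all genes at -0.46.

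**Figure D5:**
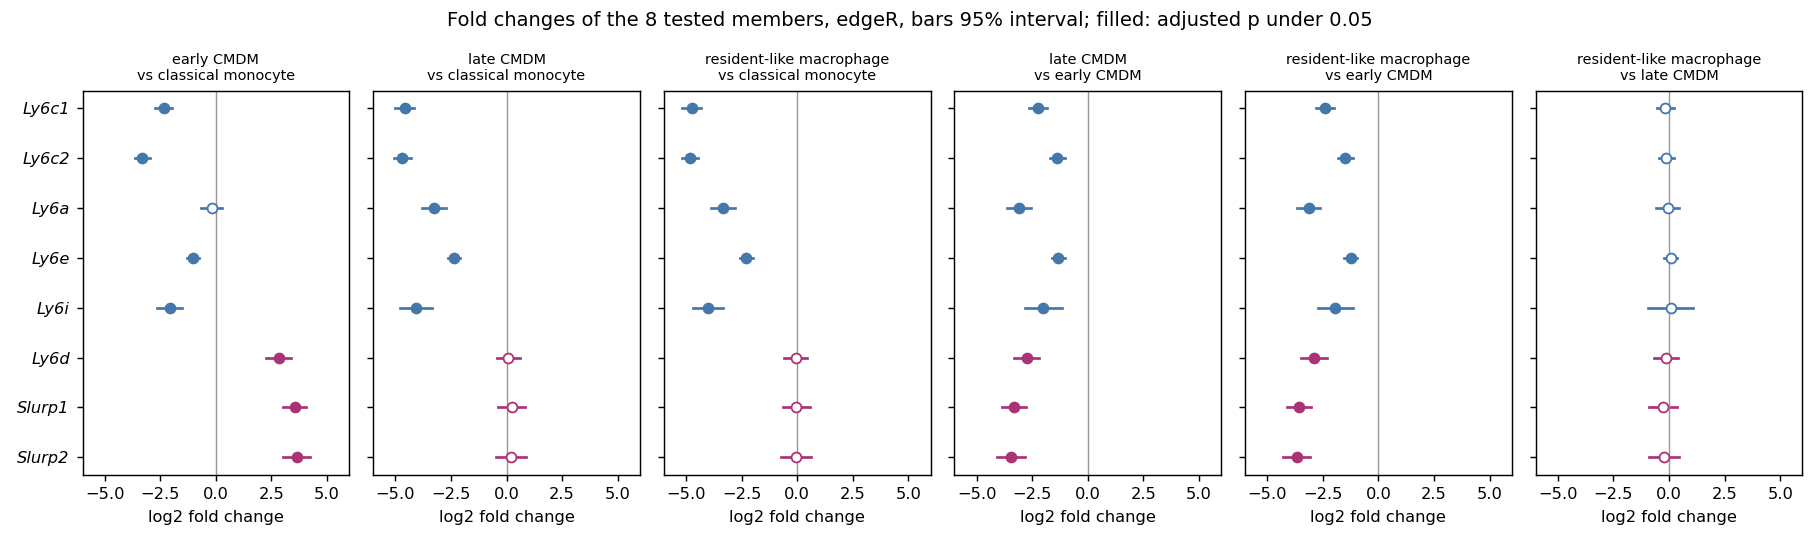
Log2 fold changes of the 8 tested members in 6 comparisons with 95% intervals from edgeR, filled where the adjusted p is under 0.05. Monocyte-side members (blue) run from -4.81 to 0.07 and epithelial members (purple) from -3.68 to 3.64, and 0 members are filled in the comparison of the Ly6C-low fractions.

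The contrast of the PD-L2 effect between the Ly6C gates, early CMDMs minus classical monocytes less late CMDMs minus resident-like macrophages, was called for 7 of the 8 members, beside 22.1% of all genes in either direction. Ly6a was the exception (-0.26 on the log2 scale, adjusted p = 0.638). For Ly6c1 and Ly6c2 the contrast is not independent of the sort on Ly6C. The call of Ly6i depended on the late CMDM libraries, with adjusted p = 0.0179 for all and 0.124 and 0.0849 without library 2 or 3.

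Normalization mattered for the monocyte-side members. When the libraries were scaled to 10 leukocyte genes in place of all genes, the median of all genes rose by 1.54 on the log2 scale between early CMDMs and classical monocytes. Under that scaling Ly6a was higher in early CMDMs (log2 fold change 1.39, adjusted p = 3.92e-05) and so was Ly6e, as given above, both below the shift of the median. Ly6i was no longer called (-0.53, adjusted p = 0.1004). Ly6c1 and Ly6c2 stayed lower in early CMDMs, but by less. Their log2 fold changes were -0.76 (adjusted p = 0.00112, edgeR) and -1.77 (adjusted p = 8.43e-12), against -2.34 and -3.32 with TMM. Ly6d, Slurp1 and Slurp2 stayed higher in early CMDMs.

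The wider family of LU domain proteins was counted as a list. The count table held 31 of its symbols. The 19 that passed the filter were tested, of which 9 were higher and 5 lower in early CMDMs than in classical monocytes, beside 24.2% and 20.6% of all tested genes. The median log2 fold change of the list was 0.61 and that of all tested genes -0.01. Ly6g6g was not on the list and is not counted. Of those called, the most abundant were Plaur, the urokinase receptor (log2 fold change -1.43, adjusted p = 3.01e-07, edgeR), Lypd3, an antigen of suprabasal keratinocytes (2.98, adjusted p = 2.21e-06), and Ly6g6c (2.87, adjusted p = 6.92e-06). Of those not called, the most abundant were Ly6m (-0.34), the complement regulator Cd59a (-0.63) and the acetylcholine receptor modulator Lynx1 (0.61). In late against early CMDMs 1 was higher and 9 lower, beside 14.4% and 17.5% of all genes, and in resident-like macrophages against late CMDMs 1 was higher and 5 lower, beside 12.7% and 15.4%.

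Genes most alike in pattern were sought by Pearson r of log2 CPM over the 12 libraries, as a description. For Ly6c1 they were Satb1 (r = 0.989), Slc44a2 (0.983) and Hsd11b1 (0.982), and for Ly6c2 they were Gzme (0.983), Sytl2 (0.982) and Ets1 (0.979). Satb1, Ets1 and Gzme are known from lymphocytes, although Gzme averaged 0.684 CPM over the 12 libraries, close to the limit of detection. The 6 T cell markers summed to 139 to 184 CPM in classical monocytes against 19.5 to 47.1 CPM in the other libraries. For Ly6a they were Tnfaip6 (0.997), Tmem100 (0.995) and Gfpt2 (0.992). For Ly6e they were Heg1 (0.983), Pi16 (0.983) and Satb1 (0.982), and for Ly6i they were Heg1 (0.966), Rbm10 (0.965) and Nars2 (0.958). Ly6d was closest to Serpinb3b (0.998), Klk11 (0.998) and Gcat (0.997), Slurp1 to Aspg (0.995), Sbsn (0.994) and Nipal2 (0.994), and Slurp2 to Cysrt1 (0.994), Chit1 (0.991) and Mpzl3 (0.991). Klk11 and Sbsn are known from the epidermis. With 4 fractions the 12 points share their fraction, so that r mostly reflects the order of the fraction means.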

How the data were processed

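mRNA of 4 sorted fractions was sequenced, with 3 libraries each. The deposited values are raw counts: per the labels and methods, the authors trimmed reads with cutadapt 4.1, mapped them to GRCm38 reference RNA with Bowtie2 2.4.5 and counted reads per gene symbol. The number of unused columns was 0.

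Counts were tested with edgeR 4.0.16 in R 4.3.3 (TMM, filterByExpr by fraction, robust quasi-likelihood fit on all 12 libraries, Benjamini-Hochberg, threshold 0.05). Of 37775 genes 22118 were tested. On simulated data for early CMDMs against classical monocytes, 172 of 200 genes changed 3-fold were recovered among 21640 genes, with 9 false calls. The simulation changed few genes, as many up as down, so it does not bear on the choice of scaling. Alternatives included DESeq2 1.42.0, other scalings, filters and thresholds, and leaving out each library. The deviations of same-numbered libraries from their fraction means correlated with r of -0.0987 to 0.248, and the chi-square of replicate counts, divided by its degrees of freedom, was 4.63 to 24.7, so no library was a duplicate.

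Positions and transcripts came from the GENCODE annotation of GRCm38, upstream sequences from RefSeq. Protein identity was not analysed here, and coding identity was used. Correlated genes exclude members, Gm, Rik and clone names. The members and lists were chosen with earlier results of these data known. Named genes are all 10 members, the 3 most abundant called and not called genes of the wider family, and for each tested member the 3 genes closest in pattern.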

Additional observations from a re-analysis of the deposited data

Results flagged for a closer look

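For 7 members the difference between PD-L2-high and PD-L2-low cells was not the same within the Ly6C-high and the Ly6C-low gate, by a test of the difference itself in edgeR. In the Ly6C-high gate Ly6c1 changed by -2.34 (log2, early CMDMs minus classical monocytes) and in the Ly6C-low gate by 0.17 (late CMDMs minus resident-like macrophages), a difference of -2.51 (SE 0.26, adjusted p = 7.73e-06). For Ly6c2 the values were -3.32 and 0.12, a difference of -3.44 (SE 0.22, adjusted p = 6.41e-08). Both fractions of the Ly6C-low gate were sorted for little product of Ly6c1 and Ly6c2. For these genes the contrast is therefore not independent of the gate. The difference was -0.97 for Ly6e (adjusted p = 0.00114) and -2.005 for Ly6i (adjusted p = 0.0179).

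The epithelial members went the other way. Ly6d changed by 2.83 in the Ly6C-high gate and by 0.15 in the Ly6C-low gate, a difference of 2.68 (SE 0.35, adjusted p = 1.23e-04). The difference was 3.28 for Slurp1 (SE 0.39, adjusted p = 2.10e-05) and 3.41 for Slurp2 (SE 0.43, adjusted p = 5.80e-05). The keratinocyte markers differed between the gates as well, with 5 of 6 called higher and a median of 2.30. Of all genes 22.1% were called in either direction. The part of the keratinocyte markers in these values was not tested.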

How the results depend on the processing

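Under scaling by 10 leukocyte genes, members called higher in early CMDMs than in classical monocytes rose from 3 to 5 and those lower fell from 4 to 2. Under the same scaling members higher in late CMDMs than in classical monocytes went from 0 to 1, and those lower in resident-like macrophages than in late CMDMs from 0 to 2. It turned the log2 fold change of Ly6a (1.39) and Ly6e (0.54) between early CMDMs and classical monocytes, of Ly6d (0.0604), Slurp1 (0.0909) and Slurp2 (0.0810) between resident-like macrophages and classical monocytes, of Ly6e (-0.39) and Ly6i (-0.39) between resident-like macrophages and late CMDMs, and of Ly6a (0.86) and Ly6e (0.15) in the contrast between the gates. The scaling itself shifted the median of all genes by up to 1.54. The share of all genes called under this scaling was not determined, so the changed counts cannot be read as particular to the members. With library size only, Ly6e (-0.0623) and Ly6i (-0.0623) turned between resident-like macrophages and late CMDMs.

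Leaving out 1 library at a time, the log2 fold change of Ly6a between early CMDMs and classical monocytes ranged from -0.45 to 0.17, and in the contrast between the gates from -0.52 to 0.11. Between late CMDMs and classical monocytes the range was -0.18 to 0.47 for Ly6d, -0.0931 to 0.44 for Slurp1 and -0.10 to 0.39 for Slurp2. Between resident-like macrophages and classical monocytes it was -0.33 to 0.32 for Ly6d, -0.35 to 0.18 for Slurp1 and -0.33 to 0.15 for Slurp2. Between resident-like macrophages and late CMDMs it was -0.0393 to 0.15 for Ly6e and -0.35 to 0.46 for Ly6i.

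The main fit took the libraries as unpaired. Of the same-number correlations 14 of 18 were at or under 0.1, and of the different-number ones 35 of 36. Their means were 0.067 and -0.033, so that a weak pairing by number is possible. With the replicate number as a block, the counts stayed at 3 higher and 4 lower in early CMDMs than in classical monocytes, at 8 lower in late than in early CMDMs and at 7 in the contrast between the gates. Counts of Ly6g, Ly6k and Ly6i limit what can be said of these genes.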

Other observations

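Outside the 10 members, chosen after their values were seen, Ly6a2 and Cd177 were highest in classical monocytes. Ly6a2 was at 7.50 ± 1.42 CPM there (SD, n = 3) and at 1.07 ± 0.267 CPM in early CMDMs, and its log2 fold change was -2.80 (adjusted p = 5.94e-07, edgeR). Cd177, a surface protein of neutrophils, was at 30.1 ± 12.3 CPM in classical monocytes and at 3.89 ± 0.109 CPM in early CMDMs (log2 fold change -2.95, adjusted p = 8.14e-08). Lypd5 and Pinlyp were higher in early CMDMs than in classical monocytes, with log2 fold changes of 3.13 (adjusted p = 4.66e-08) and 3.07 (adjusted p = 8.78e-06).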
